A study of Sus scrofa with 95 samples.

Results

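The terminal ileum of 7 pigs that had cardiopulmonary bypass with deep hypothermic circulatory arrest was compared with the terminal ileum of 8 anesthesia control pigs. These 15 libraries, 1 per animal, were chosen by the organ and arm in the labels, out of 95 libraries from 5 organs of 19 animals. All animals were infant swine of 5 to 10 kg, and neither strain nor age was given in the sources used here. The control arm had anesthesia without bypass and without drug. The bypass arm, labelled CPB/DHCA and written CPB below, had the circulation carried by a pump, cooling and 75 min of circulatory arrest, and also no drug. The 4 ilea of a further arm, with CPB/DHCA and 75 mg of linrodostat, an inhibitor of the tryptophan-degrading enzyme IDO1, entered the fits without being compared here. They bear on the estimate of the spread, the filter, the principal components and the covariate slopes. The control arm held 4 male and 4 female animals and the CPB arm 4 and 3. Ileum and kidney were taken just before euthanasia, with no interval between arrest and harvest given in the sources used here, and all 15 ileum libraries carry the same batch label.

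The terminal ileum takes back bile acids and takes up vitamin B12. Its enterocytes import bile acids through SLC10A2, bind them with FABP6 and export them through the SLC51A/SLC51B pair, while cubilin (CUBN) takes up vitamin B12 bound to intrinsic factor. In young pigs this segment also carries a long Peyer's patch full of B cell follicles, wrapped in layers of smooth muscle. Blood flow to the gut stops during circulatory arrest, and the bowel is known as an organ at risk of injury by lack of oxygen and by the return of flow. A piece of bowel wall mixes all these cells, and in such bulk RNA a smaller number of cells of a type and less RNA per cell cannot be told apart.

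The 8 control libraries held 28.5 to 51.4 counts in units of 1e6 and the 7 CPB libraries 32.0 to 40.9. Levels are given in CPM, counts per 1e6 counts of the library scaled by TMM, a normalisation that makes most genes comparable between libraries, and are compared for 1 gene at a time across libraries. Of 35670 genes in the table, 17869 were detected well enough to be tested. A gene passed when its edgeR p, adjusted over all genes tested, was under 0.05. Replicates are separate animals.

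The library of CPB animal 19 stood apart from the other 14 and went against its label for ileal markers. FABP6 was at 10.5 CPM in it and at 1658 to 7191 CPM in the others. SLC10A2 was at 1.06 CPM against 46.1 to 460 CPM, and SI, the sucrase-isomaltase of small intestinal enterocytes, at 3.26 CPM against 446 to 3414 CPM. The fatty acid binding protein FABP2 and the lipoprotein APOA4, also enterocyte products, were at 0.124 and 0.279 CPM. The same library was high for the carbonic anhydrases CA1 and CA2, at 1373 and 817 CPM, while no other control or CPB ileum exceeded 3.24 CPM of CA1 or 3.19 CPM of CA2. The sulfotransferase GAL3ST2 was at 408 CPM against at most 2.47 CPM, the transcription factor HOXD10 at 16.6 CPM against at most 1.82 CPM, and the water channel AQP8 at 600 CPM against at most 218 CPM. SLC10A2, SI, AQP8 and HOXD10 were chosen after their values were seen. The 10 genes of the ileal uptake list summed to 124 CPM in this library, to 2173 to 6498 CPM in the other 6 CPB ilea and to 3493 to 8995 CPM in the controls. Each result that rests on this library is therefore given with and without it.

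The other libraries kept their ileal markers but differed in muscle and lymphoid content. The 17 tested smooth muscle genes summed to 1327 to 41734 CPM in the controls, a 31.4-fold range, and to 2562 to 28153 CPM in the CPB ilea, an 11.0-fold range. The 12 tested B cell follicle genes ran in the opposite direction, from 134 to 4149 CPM in the controls and from 56.2 to 2828 CPM in the CPB ilea, or from 269 CPM without CPB 19. Control animals 7, 13 and 14 and CPB animals 2 and 19 were high in muscle and low in B cell genes. The B cell receptor subunit CD79A was at 18.9 to 48.7 CPM in these 3 controls and at 279 to 469 CPM in the other 5, and at 8.94 CPM in CPB 19, 32.5 CPM in CPB 2 and 262 to 336 CPM in the other 5 CPB ilea. Both arms thus held muscle-rich and B cell-rich pieces, with ranges that overlapped.

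**Figure D1:**
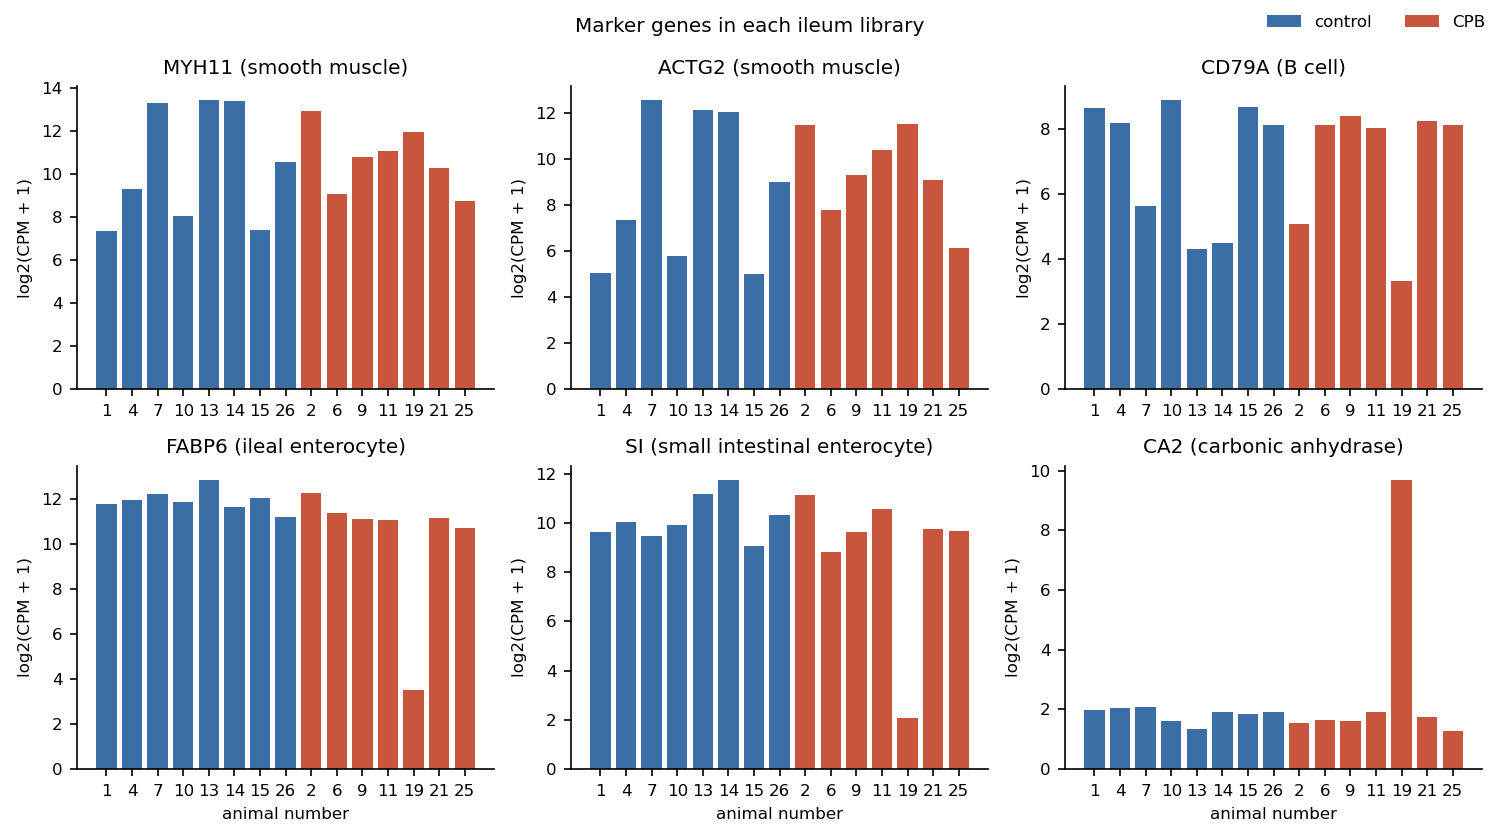
Levels of 6 marker genes in each of the 8 control (blue) and 7 CPB (red) ileum libraries, as log2(CPM + 1) on the vertical axis, with the animal number on the horizontal axis. MYH11 and ACTG2 are high where CD79A is low, in controls 7, 13 and 14 and CPB 2 and 19, and CPB 19 alone has low FABP6 and SI and high CA2.

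Principal component analysis of the 2000 most variable genes followed this content. The first component held 44.7% of the variance, with muscle genes such as ACTG2, DES, CNN1 and CKM at one end and B cell genes such as MS4A1 and PAX5 at the other. Mean scores on it differed between CPB and control by −1.71, with an exact permutation p of 0.927 (two-sided). The second component, 12.5% of the variance, ran from absorptive genes such as APOB, MTTP and CUBN to CA1, CYP4B1 and CA2, and its far end was CPB 19 alone. Its means differed by 18.3 (exact permutation p = 0.266). Neither difference passed a p of 0.05. Without CPB 19 the first component differed by 6.61 (exact permutation p = 0.806) and the second by −21.0 (exact permutation p = 0.0593), but that second component was another axis, with a correlation of 0.298 to the first analysis over the libraries both hold. Over all 17869 genes, CPB 19 included, the second component differed by 31.2 with an exact permutation p of 0.0211.

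**Figure D2:**
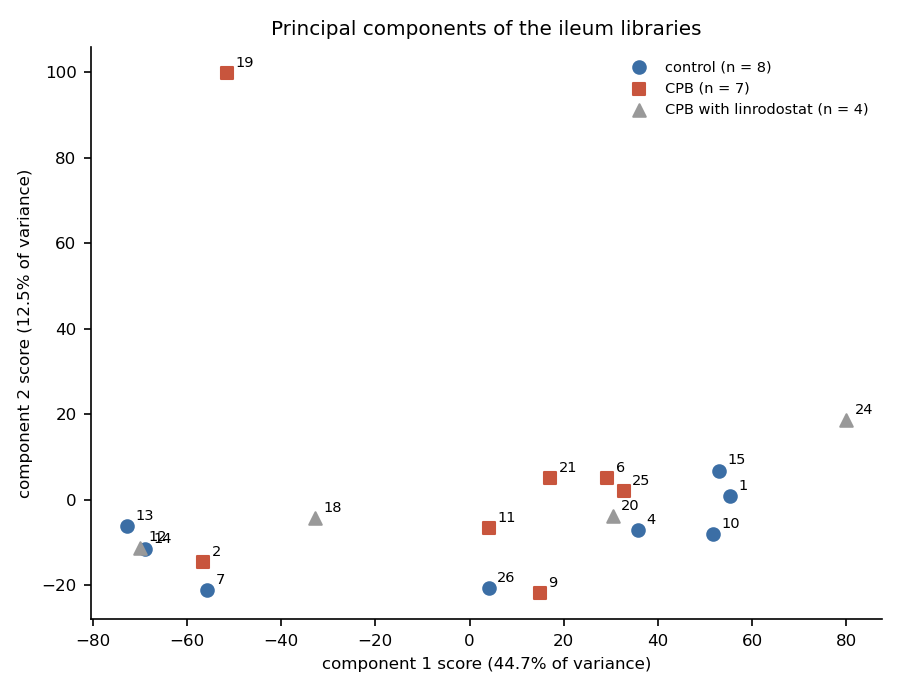
Scores of the 19 ileum libraries on principal components 1 (horizontal, 44.7% of variance) and 2 (vertical, 12.5%), each point a library with its animal number, for controls (circles), CPB (squares) and CPB with linrodostat (triangles). Controls and CPB ilea are mixed along component 1, and CPB 19 stands alone on component 2.

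In the comparison of the arms, 0 of 17869 genes passed with edgeR, and the smallest adjusted p was 0.464. An unadjusted p under 0.05 was reached by 932 genes, 5.22% of those tested, of which 420 (2.35%) were higher and 512 (2.87%) lower in CPB. Without CPB 19 also 0 genes passed, and 718 of 17812 (4.03%) had an unadjusted p under 0.05, 267 (1.5%) higher and 451 (2.53%) lower. DESeq2 called 16 genes, 5 higher and 11 lower, and limma-voom with a weight per library called 6, all lower. The biological coefficient of variation, the typical relative spread between animals of an arm, was 0.526. DESeq2's calls held JUNB, SUOX, PRXL2B, MRPS33 and ZBTB20 on the lower and FREM1 on the higher side, and the fit with library weights called PRXL2B and ZBTB20. The genes below are described by their levels in each library, since none of them passed in this comparison with edgeR.

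The genes of lowest unadjusted p among those lower in CPB included 2 regulators of the early response to a stimulus. JUNB (chromosome 2, 66214086 to 66219435 of Sscrofa11.1), a subunit of the transcription factor AP-1, stood at 158 CPM in the lowest, 207 in the median and 295 in the highest control, and at 101, 145 and 162 CPM in the CPB ilea. All 7 CPB libraries were below the control median and 6 below the lowest control, with a log2 fold change of −0.68 ± 0.16 (SE; edgeR adjusted p = 0.575). BCL3 (chromosome 6, 51256033 to 51264923), an atypical IκB protein that binds NF-κB subunits in the nucleus, stood at 80.6 to 148 CPM (median 97.7) in controls and 48.4 to 76.5 CPM (median 65.7) in CPB. The arms did not overlap for BCL3, and its log2 fold change was −0.67 ± 0.17. TLR2 (chromosome 8, 75416257 to 75428370), a receptor for bacterial lipoproteins, stood at 33.9, 60.2 and 161 CPM in controls and 20.9, 28.1 and 47.3 CPM in CPB, where the highest value was CPB 19. Its log2 fold change was −1.19 ± 0.30 with CPB 19 and −1.33 ± 0.30 without it.

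The other genes named on the lower side had varied roles. SUOX (chromosome 5, 21395246 to 21399715), sulfite oxidase of mitochondria, ranged from 55.0 to 214 CPM in controls (median 103) and from 16.2 to 63.3 CPM in CPB (median 54.3), a 2.63-fold lower fitted level. Its log2 fold change was −1.39 ± 0.32, or −1.25 ± 0.29 without CPB 19, which held the lowest value. PRXL2B, a prostamide and prostaglandin F synthase, stood at 4.70 to 14.9 CPM in controls and 2.12 to 4.76 CPM in CPB, with 6 of 7 CPB ilea below all controls (log2 fold change −1.32 ± 0.29). MRPS33, a protein of the small mitochondrial ribosomal subunit, did not overlap between the arms, at 28.7 to 40.1 CPM against 19.6 to 27.3 CPM, a log2 fold change of −0.48 ± 0.11. The mevalonate pathway kinase PMVK and the transcriptional coactivator EDF1 had log2 fold changes of −0.62 ± 0.16 and −0.50 ± 0.13, and their ranges overlapped. ZBTB20, a zinc finger repressor, had the smallest p of all genes and no overlap, but at 0.768 to 1.73 CPM in controls and 0.284 to 0.631 CPM in CPB it was below the level set for named genes and was chosen after its values were seen (log2 fold change −1.56 ± 0.28, edgeR adjusted p = 0.464).

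On the higher side, some genes differed in most libraries and others rested on 1 library. CTSK, cathepsin K, a collagen-degrading protease, stood at 29.8, 34.6 and 39.0 CPM in controls and 38.9, 45.5 and 54.7 CPM in CPB, with 6 of 7 CPB ilea above all controls and a log2 fold change of 0.41 ± 0.11. The scavenger receptor COLEC12 stood at 20.3 to 32.2 CPM in controls and 27.3 to 50.7 CPM in CPB (log2 fold change 0.58 ± 0.15), and the AMP-activated kinase subunit PRKAG3 at 1.48 to 4.55 CPM against 4.00 to 9.29 CPM (0.95 ± 0.25). FREM1, an extracellular matrix protein of basement membranes, stood at 0.698 to 1.57 CPM in controls and 0.799 to 5.65 CPM in CPB (1.60 ± 0.39). FAM117B stood at 14.0 to 28.8 CPM in controls and 27.7 to 98.7 CPM in CPB, and its log2 fold change of 0.99 ± 0.25 became 0.62 ± 0.16 without CPB 19. For 3 further genes the rule led to 1 library. CA2 had a log2 fold change of 5.50 with CPB 19 and −0.32 without it, and the cytochrome P450 gene CYP4B1 6.14 with and 2.63 without it. ATP8, a mitochondrial gene that shares bases with its neighbour ATP6, was at 1299 CPM in CPB 21 and at most 12.5 CPM in every other control or CPB ileum, and its log2 fold change of 4.55 became −0.09 without CPB 21.

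The levels of the arms did not overlap for 20 genes (0.112% of those tested), 16 (0.0895%) with CPB below and 4 (0.0224%) with CPB above, and without CPB 19 for 30 genes (0.168%), 23 (0.129%) below and 7 (0.0392%) above. Beside BCL3 and MRPS33, those named by the rule were TADA3, a subunit of histone acetyltransferase complexes (log2 fold change −0.43), the interferon-induced IFI35 (−0.50), the prenyl-binding protein PDE6D (−0.47), the chromatin protein PHF14 (−0.37) and LRBA, which keeps CTLA4 in its recycling pool (−0.34). With CPB above were C5orf15 (0.30), the endosomal sorting protein SNX27 (0.19) and TTC39A (1.45, or 0.91 without CPB 19). The shifts of SNX27 and C5orf15 were small beside those of JUNB or SUOX, but their libraries lay close together. SNX27, for example, ran from 47.2 to 54.4 CPM in controls and from 54.9 to 60.5 CPM in CPB.

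**Figure D3:**
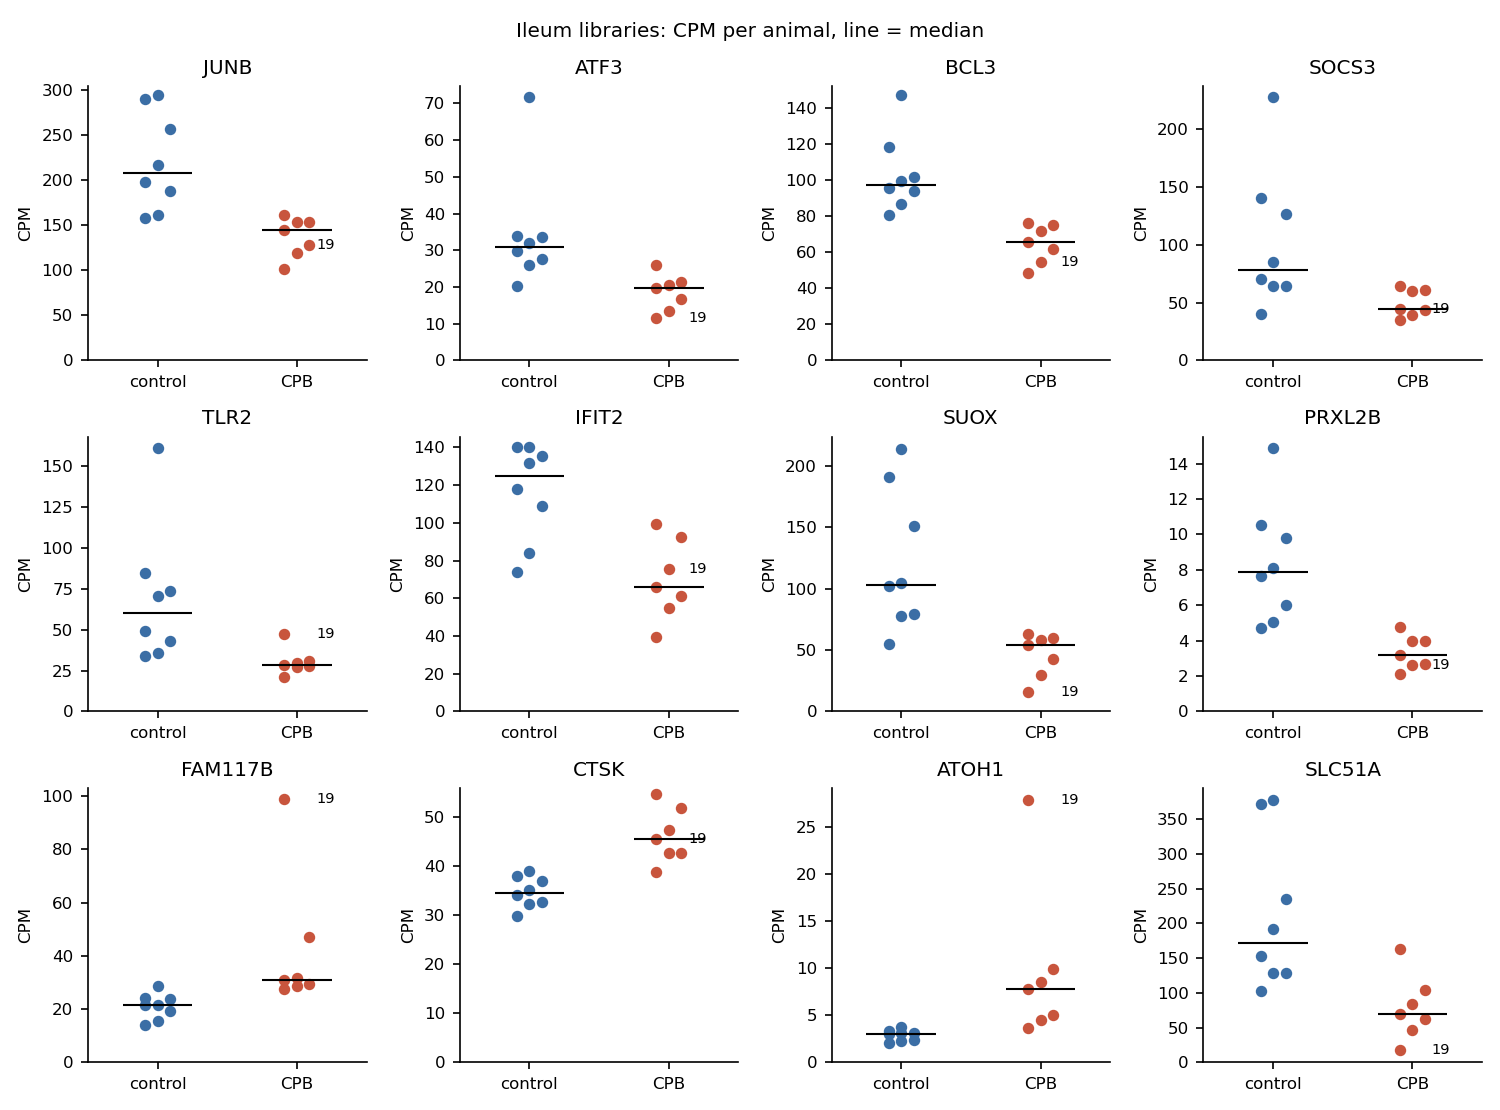
CPM of 12 genes in each of the 8 control (blue) and 7 CPB (red) ilea on linear axes from 0, each point an animal and each line the median of its arm, with CPB 19 numbered. JUNB, ATF3, BCL3, SOCS3, TLR2, IFIT2, SUOX, PRXL2B and SLC51A lie lower in CPB, with no overlap for BCL3, and FAM117B, CTSK and ATOH1 lie higher, with CPB 19 far above the rest for FAM117B and ATOH1.

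Genes were also read by lists of cell types and responses, 616 distinct genes in all, of which 0 passed. Counts of members with an unadjusted p under 0.05 are read against 2.35% higher and 2.87% lower, and medians against −0.02, the median log2 fold change of all genes tested (−0.04 without CPB 19). Of all genes, 53.7% had a log2 fold change below 0 and 46.3% above. The lists were chosen with results of these data known, and they carry no test of their own.

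Immediate early genes, transcribed within minutes of a stimulus without new protein synthesis, were below 0 in 19 of 26, with a median log2 fold change of −0.24 (−0.35 without CPB 19). 8 of the 26, CCN1, JUNB, EGR1, ATF3, IER3, ZFP36, NR4A1 and FOSB, had an unadjusted p under 0.05 on the lower side and 0 on the higher side, and 9 and 0 without CPB 19. ATF3, a stress-induced transcription factor, stood at 20.3, 30.9 and 71.8 CPM in controls and 11.6, 19.8 and 26.1 CPM in CPB (log2 fold change −0.89 ± 0.24). IER3, an early regulator of cell survival, stood at 9.31 to 31.7 CPM against 6.52 to 12.1 CPM (−0.93 ± 0.27), with all 7 CPB ilea below the control median. ZFP36, which speeds the decay of cytokine messages, stood at 174 to 368 CPM against 132 to 247 CPM (−0.46 ± 0.19), with overlap.

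The 21 tested genes of the list of NF-κB, cytokine and chemokine genes had a median of −0.38 (−0.26 without CPB 19) and 19 below 0. IL22, CXCL8, CXCL2, PTGS2, CSF3, CCL2 and CSF2, 7 of 21, had an unadjusted p under 0.05, all lower, and 5 without CPB 19. IL22, a cytokine of lymphocytes that acts on gut epithelium, did not overlap between the arms, at 1.20 to 4.33 CPM in controls and 0 to 0.929 CPM in CPB. CPB 2 held 0 counts of it and CPB 19 0.0310 CPM, and the log2 fold change was −2.03 ± 0.63 with and −1.83 ± 0.59 without CPB 19. CSF2, the growth factor GM-CSF, was scarce, at 0.171 to 0.594 CPM against 0.0581 to 0.210 CPM (−1.42 ± 0.41).

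The 15 genes induced by IL6 and STAT3 had a median of −0.36 (−0.34 without CPB 19), with 4 lower and 0 higher at an unadjusted p under 0.05, namely PIM1, BCL3, SOCS3 and CISH. SOCS3, the feedback inhibitor of this pathway, stood at 40.1, 77.7 and 227 CPM in controls and 35.0, 44.0 and 64.5 CPM in CPB (−1.04 ± 0.33), with all 7 CPB ilea below the control median. The kinase JAK2 is upstream of STAT3 and stood at 45.3 to 88.8 CPM against 36.7 to 52.9 CPM (−0.47 ± 0.15). Over the 3 lists, 62 genes with 0 shared, 51 were below 0 and 19 (30.6%) had an unadjusted p under 0.05, all lower, beside 2.87% of all genes. Without CPB 19 the count was 17 of 62, all lower. These 3 lists were put together with their results known, so the pooled share is a description and carries no test.

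Further response lists also had medians below that of all genes, and 4 of them are described here. Those left out included fat absorption and oxidation (−0.23), cell cycle (−0.11) and p53 and cell death (−0.09). Of 26 type I interferon genes, 3 were lower and 0 higher (IFIT2, ISG20 and IFIT3), with a median of −0.17, or −0.43 without CPB 19. IFIT2, which blocks translation of viral RNA, stood at 74.0, 125 and 140 CPM in controls and 39.6, 66.2 and 99.3 CPM in CPB (−0.74 ± 0.20). Of 18 heat shock genes 17 were below 0, with a median of −0.35 and 2 lower, the cochaperone DNAJB1 (−0.38 ± 0.15) and HSPA6 (−0.78 ± 0.30), whose reads may be shared with near-identical HSP70 copies. Of 19 cholesterol synthesis genes 16 were below 0, with a median of −0.29 and 4 lower (FDPS, CYP51A1, SC5D and IDI1), or 2 without CPB 19. FDPS, the farnesyl diphosphate synthase, stood at 104 to 152 CPM against 64.3 to 125 CPM (−0.40 ± 0.13). The 19 genes of interferon gamma and antigen presentation had a median of −0.21, and the count at an unadjusted p under 0.05 was 0 in both directions.

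Absorptive genes had some of the lowest list medians, and wide spreads. All 10 genes of ileal bile acid and vitamin B12 uptake were below 0, with a median of −0.75 (−0.58 without CPB 19), but only SLC51A, or SLC51A and CUBN without CPB 19, reached an unadjusted p under 0.05. SLC51A (chromosome 13, 133851775 to 133869753), the basolateral bile acid exporter subunit, stood at 104, 172 and 377 CPM in controls and 18.2, 69.4 and 164 CPM in CPB. All 7 CPB ilea were below the control median and 5 below the lowest control, and the log2 fold change was −1.43 ± 0.44 with and −1.26 ± 0.41 without CPB 19. FABP6 (chromosome 16, 63297594 to 63303675) stood at 2324 to 7191 CPM in controls and, without CPB 19, at 1658 to 4930 CPM, with a log2 fold change of −0.62 ± 0.30. CUBN stood at 64.4, 219 and 673 CPM in controls and 0.466, 67.1 and 246 CPM in CPB (−1.70 ± 0.81, or −1.48 ± 0.68 without CPB 19). Of 14 enterocyte genes 13 were below 0 with a median of −0.63, 0 with an unadjusted p under 0.05, and 2 without CPB 19, the cadherin CDH17 (−0.78) and FABP2 (−1.21). The summed enterocyte genes were highest in controls 7, 13 and 14, at 20087 to 25635 CPM, and in CPB 2, at 22732 CPM, all muscle-rich. These controls raise the control mean, but the median library was also lower in CPB, at 6627 against 12232 CPM. With muscle and B cell scores in the fit, described below, the enterocyte median was −0.73, or −0.50 without CPB 19. The uptake median was then −0.85, or −0.28 without CPB 19.

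Goblet cell genes lay on the other side, by less without CPB 19. Of 9 goblet cell genes, 8 were above 0 and ATOH1, AGR2, CLCA1 and TFF3 had an unadjusted p under 0.05, all higher, with a median of 0.65. Without CPB 19 the median was 0.10 and the count 2, ATOH1 and AGR2. With muscle and B cell scores in the fit, described below, the median was 0.40, or 0.30 without CPB 19. The same 4 genes were then higher with and without CPB 19, beside 7.22% of all genes with it and 805 of 17812 without it. ATOH1 (chromosome 8, 125768232 to 125770619), the transcription factor that commits crypt cells to the secretory lineage, stood at 2.03, 3.06 and 3.77 CPM in controls and 3.70, 7.81 and 27.9 CPM in CPB. 6 of 7 CPB ilea were above all controls, and the log2 fold change was 1.74 ± 0.46 with and 1.19 ± 0.39 without CPB 19, the highest library. AGR2, a disulfide isomerase needed to fold mucin, stood at 16.4 to 48.9 CPM in controls and 32.8 to 224 CPM in CPB (1.41 ± 0.40, or 0.84 ± 0.30 without CPB 19). TFF3, the goblet cell trefoil peptide, overlapped widely, at 41.0 to 169 CPM against 69.4 to 170 CPM (0.69 ± 0.32). The 13 enteroendocrine genes, also of secretory cells, had a median of −0.12 with 9 below 0 and a count of 0 at an unadjusted p under 0.05. The 10 stem and crypt genes had a median of 0.64, or 0.38 without CPB 19, and 1, the stem cell factor ASCL2 (1.21 ± 0.43), reached an unadjusted p under 0.05. LGR5, the stem cell receptor, stood at 0.854 to 2.99 CPM against 0.866 to 4.38 CPM (0.64 ± 0.36), and OLFM4 changed sign from 1.10 to −0.29 without CPB 19, which held 7763 CPM.

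Lists of stroma, muscle, nerve and immune cells had few or no members past an unadjusted p of 0.05. Fibroblast and matrix genes had a median of 0.35 (0.20 without CPB 19) and 1 of 11 higher, the proteoglycan LUM, at 32.2 to 80.4 CPM in controls and 53.1 to 125 CPM in CPB (0.64 ± 0.23). The 17 smooth muscle and 15 enteric neuron and glia genes had medians of −0.54 and −0.39 with a count of 0, within arms that each spanned over 10-fold in summed muscle genes. These fold changes compare arm means, which the muscle-rich controls raise. The median library went the other way, with summed smooth muscle genes at 4494 CPM in controls and 6865 CPM in CPB. Muscle genes are therefore not read as lower in CPB. B cell follicle, T cell and macrophage lists had medians of −0.10, 0.08 and 0.07, with a count of 0 in each. The neutrophil list, 6 tested genes of which 5 were below 0, had 1 lower, the calgranulin S100A8, with a median of 0.523 and a highest value of 2.83 CPM in controls, and a median of 0.237 and a highest value of 0.407 CPM in CPB (−2.21 ± 0.64). The summed neutrophil genes were 15.0 to 48.9 CPM in controls and 11.5 to 34.0 CPM in CPB.

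Genes of oxidant and heme stress depended largely on CPB 19. Of 15 genes of NRF2, heme breakdown and metallothionein, GCLC, NQO1, SLC7A11 and HMOX1 were higher and the zinc exporter SLC30A1 lower at an unadjusted p under 0.05, with a median of 0.27. Without CPB 19 the count was 0 higher and 1 lower and the median −0.11. HMOX1, heme oxygenase 1, stood at 19.4, 27.2 and 51.7 CPM in controls and 24.8, 40.7 and 315 CPM in CPB, a log2 fold change of 1.38 ± 0.47 that became 0.48 ± 0.29 without CPB 19. The quinone reductase NQO1 was at 171 CPM in CPB 19 and at most 19.7 CPM in the other control and CPB ilea, and its 1.90 ± 0.61 became 0.45 ± 0.31. The antimicrobial BPI and the oxidase DUOX2 likewise stood at 1269 and 477 CPM in CPB 19, and their log2 fold changes of 3.12 and 2.07 became 0.38 and 0.63. With muscle and B cell scores in the fit, described below, the median of the NRF2 list was 0.21, or −0.05 without CPB 19. NQO1 was then higher by 1.25 ± 0.27, or 0.80 ± 0.27 without CPB 19, when it was the 1 gene counted higher.

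**Figure D4:**
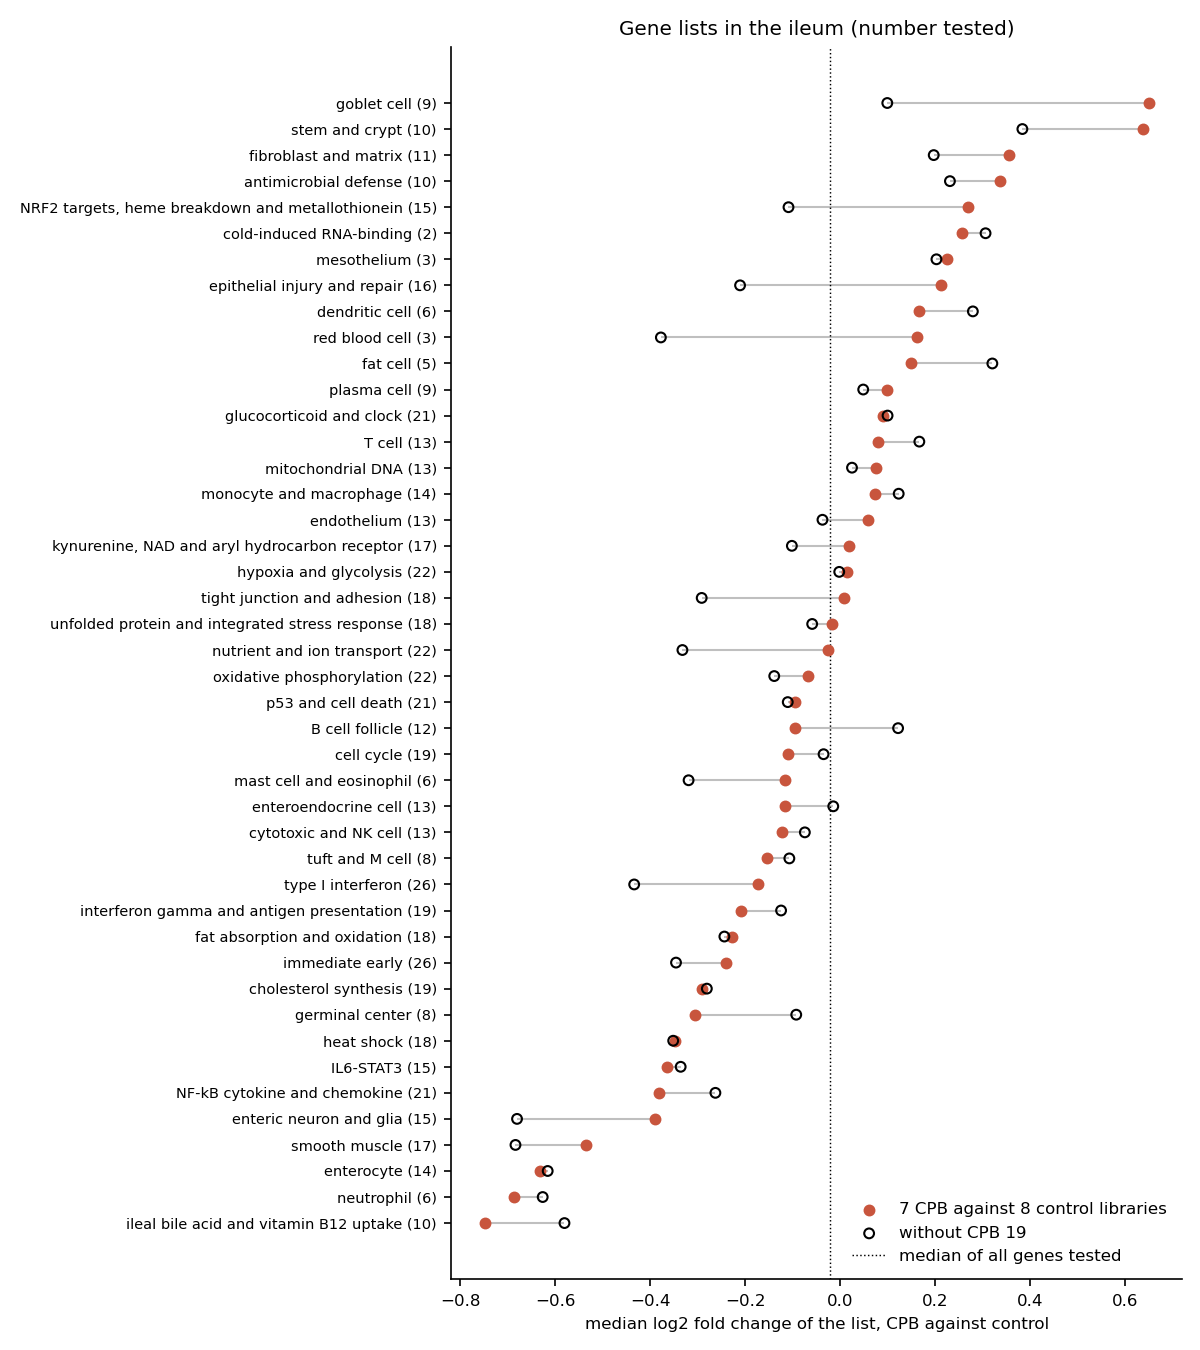
Median log2 fold change of CPB against control for each gene list, with the number of tested genes in brackets, for all libraries (filled) and without CPB 19 (open); the dotted line is the median of all genes tested. Immediate early, NF-κB, IL6-STAT3, heat shock, cholesterol and absorptive lists lie to the left with and without CPB 19, while the goblet cell median drops from 0.65 to 0.10 and the NRF2 median from 0.27 to −0.11.

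Adding each library's smooth muscle and B cell follicle score to the fit lowered the biological coefficient of variation from 0.526 to 0.339, and 2 of 17869 genes (0.0112%) passed, SUOX and COQ8A. An unadjusted p under 0.05 was then reached by 2425 genes (13.6%), 1290 higher (7.22%) and 1135 lower (6.35%). Without CPB 19 the same fit had 1589 such genes of 17812, 805 higher and 784 lower. SUOX fell by 1.54 ± 0.23 on the log2 scale (edgeR adjusted p = 0.0442), lower than the control median in 7 of 7 CPB ilea. COQ8A (chromosome 10, 14597237 to 14643394), a kinase-like protein of coenzyme Q synthesis, rose by 0.71 ± 0.11 (edgeR adjusted p = 0.0442), from 16.1, 22.2 and 54.0 CPM in controls to 28.1, 41.5 and 136 CPM in CPB, above the control median in 7 of 7. Without covariates, leaving out single libraries gave COQ8A log2 fold changes of 0.38 to 0.98, with a lowest edgeR adjusted p of 0.818. Neither passed without CPB 19, at −1.22 for SUOX (adjusted p = 0.159) and 0.62 for COQ8A (adjusted p = 0.312), both by edgeR with covariates, and the number passing ran from 0 to 4 when single libraries were left out. When only the 15 control and CPB libraries were fitted it was 317, and 2 when CPB 19 was also left out.

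Genes close behind in the edgeR fit with covariates did not pass in it. Lower were PRXL2B (−1.28 ± 0.22), JAK2 (−0.51 ± 0.09), ANO10, an intracellular anoctamin (−0.93 ± 0.18), JUNB (−0.72 ± 0.14) and IER3 (−0.94 ± 0.18), with edgeR adjusted p-values of 0.0844 to 0.0906. Higher were FAM117B (0.96 ± 0.17), the p53 target TP53INP1 (0.61 ± 0.11), TXNIP, the inhibitor of thioredoxin (0.64 ± 0.13), the immune checkpoint protein CD276 (0.54 ± 0.11) and TTC39A (1.31 ± 0.27), with edgeR adjusted p-values of 0.0844 to 0.102. TP53INP1 stood at 37.2 to 64.8 CPM in controls and 53.8 to 108 CPM in CPB. For FAM117B, CD276 and TTC39A, CPB 19 stood far above the other CPB ilea, and the covariate estimates above include it. In the fit without covariates, leaving out single libraries lowered the log2 fold change to 0.62 for FAM117B, 0.24 for CD276 and 0.91 for TTC39A. By list, the covariates raised the counts at an unadjusted p under 0.05 to 12 of 26 immediate early and 9 of 15 IL6-STAT3 genes, all lower, beside 6.35% of all genes, and to 8 of 11 fibroblast and matrix genes, all higher, beside 7.22%. The 19 interferon gamma and antigen presentation genes were then all below 0, with a median of −0.35 and 6 lower, or 15 below 0, a median of −0.22 and 2 lower without CPB 19. The 8 fibroblast and matrix genes included COL3A1 (0.66 ± 0.19), COL1A2 (0.64 ± 0.19), DCN (0.52 ± 0.17) and LUM (0.62 ± 0.17), and 6 of 11 were counted without CPB 19. Not every list moved away from 0 with the covariates. Type I interferon genes had a median of −0.09 and 3 lower. Cell cycle genes were above 0 in 18 of 19, with a median of 0.30 and 3 higher, or −0.03 and 0 without CPB 19. Cholesterol synthesis genes had a median of −0.31 and 6 lower, but −0.15, 1 lower and 1 higher without CPB 19. The counts without CPB 19 are read beside 805 higher and 784 lower of 17812 genes in that fit.

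Genes of the drug target, of cold and of steroid response did not pass in either fit. IDO1 stood at 5.93, 13.5 and 25.4 CPM in controls and 5.24, 10.2 and 26.0 CPM in CPB, a log2 fold change of −0.26 ± 0.44 with ranges that coincided. RBM3, a cold-induced RNA-binding protein, stood at 108, 279 and 518 CPM against 285, 396 and 593 CPM (0.40 ± 0.38), and CIRBP, its relative, at 88.2 to 218 CPM against 122 to 199 CPM (0.12 ± 0.19). FKBP5, induced by glucocorticoids, stood at 77.8 to 142 CPM in controls and 103 to 140 CPM in 6 CPB ilea, with 303 CPM in CPB 2 (0.45 ± 0.28).

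To ask where the ileum departed from the other organs, the CPB effect in ileum minus the mean of the CPB effects in heart, kidney, liver and lung was tested over all 95 libraries; the effects of single organs given beside it come from fits of each organ alone. Of 20321 genes 329 (1.62%) passed, 178 (0.876%) with a higher and 151 (0.743%) with a lower effect in ileum. With relative log expression scaling they were 380, 168 higher and 212 lower, and without the ileum library of CPB 19 they were 213, 88 higher and 125 lower. These fits treat the 5 organs of an animal as independent, and with the animal as a block 550 passed, of which 280 were among the 329. A fit with a weight per organ (limma-voom), which lets the ileum spread more than other organs, called 5. Among the 6 largest on the higher side by p, CA2, GAL3ST2, PPP1R14C and UCP3 rested on CPB 19, with differences of 5.87, 5.35, 5.13 and 5.08 that became −0.02, −0.42, −0.27 and 0.55 without it, and MECOM went from 1.91 to 0.66.

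The exception on the higher side was GASK1B, a Golgi kinase-like protein. Its log2 fold change was 0.64 ± 0.31 in ileum, with all 7 CPB ilea above the control median, and −0.62 ± 0.22 in heart, −1.34 ± 0.14 in kidney, −0.24 ± 0.19 in liver and −1.45 ± 0.23 in lung. The difference was 1.57 ± 0.27 (edgeR adjusted p = 0.000399), and 1.63 without CPB 19. On the lower side, IFRD1, an interferon-related regulator of differentiation, had −0.54 ± 0.23 in ileum and rose in the other organs, by 0.86 in heart, 0.84 in kidney, 1.49 in liver and 1.20 in lung (difference −1.62 ± 0.27, edgeR adjusted p = 0.000279). OSER1, a gene responsive to oxidative stress, had −0.11 ± 0.16 in ileum and rose by 1.57 in kidney, 0.91 in liver and 0.46 in heart (difference −0.88 ± 0.16). The ribosome biogenesis factor NOP9 and the transporter SLC49A4 differed by −0.72 ± 0.13 and −1.13 ± 0.22.

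The calgranulins S100A8 and S100A12, proteins of neutrophils and monocytes, also differed. S100A8 had −2.21 ± 0.64 in ileum and rose by 2.03 in liver and 1.71 in lung (difference −4.18 ± 0.71, edgeR adjusted p = 0.000399). It was scarce in ileum, and in heart too scarce to be tested alone, although heart enters the mean of the other organs. The size of its difference is therefore uncertain. The settings below include a fit without heart. S100A12 had −1.40 ± 0.70 in ileum and rose by 2.30 in kidney and 2.16 in liver (difference −3.24 ± 0.64, edgeR adjusted p = 0.00274). The differences of GASK1B, IFRD1, OSER1, NOP9, SLC49A4, S100A8 and S100A12 passed in 6 of 7 settings, the exception being the fit with a weight per organ, and each passed without the ileum library of CPB 19. For JUNB the difference was −0.46 (edgeR adjusted p = 0.421) and for HMOX1 −0.54 (0.662), so neither effect in ileum was shown to differ from the other organs, although HMOX1 rose by 4.23 in kidney. The HMOX1 value holds only with CPB 19 included. That library set much of the HMOX1 effect in ileum, which was 1.38 with it and 0.48 without it. No conclusion on HMOX1 between organs is drawn without CPB 19.

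**Figure D5:**
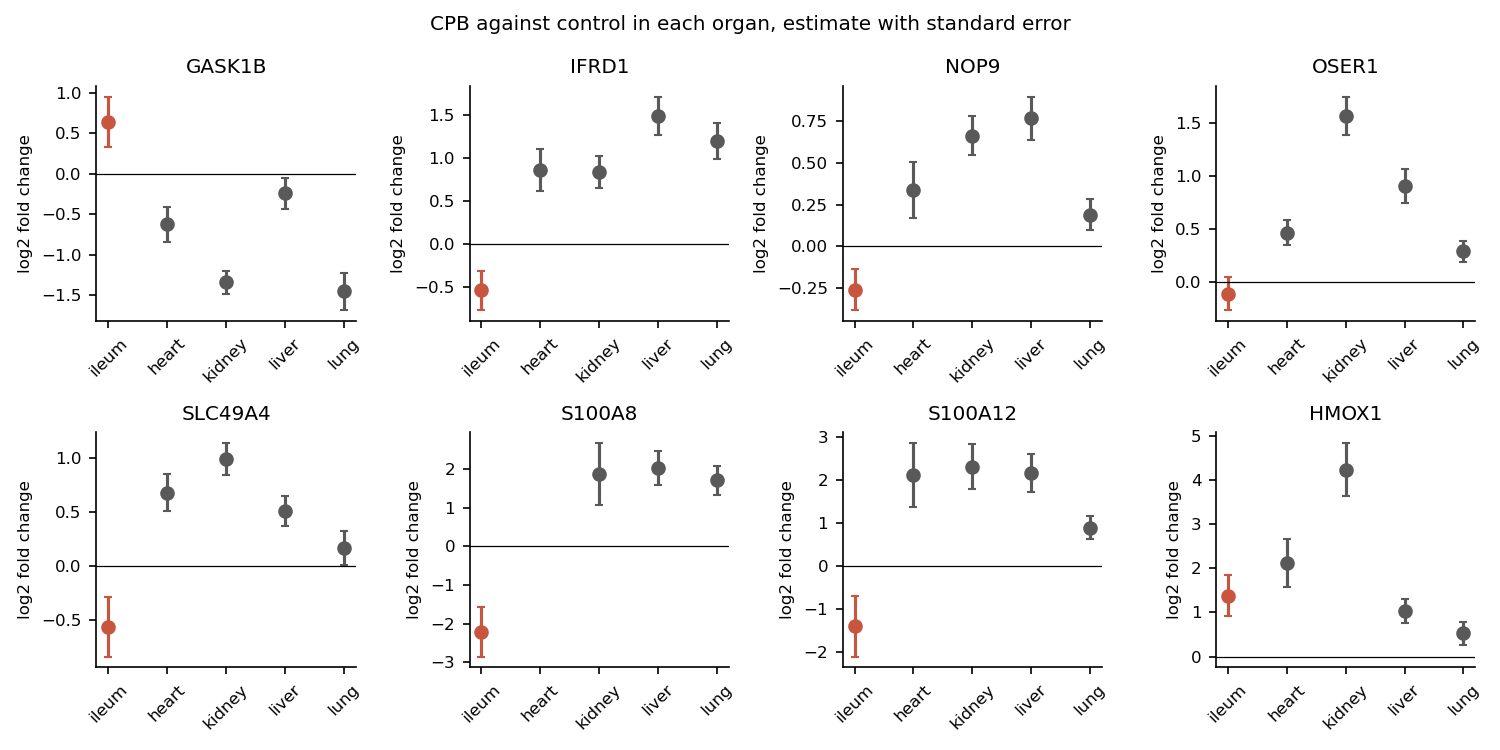
Log2 fold change of CPB against control with its standard error (bars) in ileum (red) and in heart, kidney, liver and lung (grey) for 8 genes; vertical scales differ between panels, the thin line marks 0, and S100A8 was not tested in heart. GASK1B is above 0 in ileum alone, IFRD1, NOP9, OSER1, SLC49A4, S100A8 and S100A12 are below 0 in ileum alone, and HMOX1 is above 0 in all 5 organs.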

How the data were processed

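The authors deposited 1 table of expected counts (estimates per Ensembl gene, unscaled for depth or length), which were rounded to whole numbers here. Reads were paired, from poly(A) RNA (Tecan Universal Plus mRNA-Seq kit, NovaSeq 6000), per the labels' protocols. STAR, Salmon, cutadapt, Trim Galore, bcl2fastq, MultiQC and Sscrofa11.1 appear in the submitters' processing notes; the program that counted, the annotation release and the use of strand are not given in the sources used here. Gene positions come from RefSeq's table for Sscrofa11.1.

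The 19 ileum libraries were filtered by group with filterByExpr, scaled by TMM and fitted with edgeR 4.0.16 (R 4.3.3; robust quasi-likelihood F tests, Benjamini-Hochberg over all genes tested). Scores for the covariate fit are means over a list's genes of scaled log2 CPM (prior count 2). Alternatives used limma 3.58.1, DESeq2 1.42.0 and sva 3.50.0, relative log expression, no filter, sex as a covariate, and leaving out each library. Procedures were tested on simulated counts.

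Named genes are the 8 smallest p-values in each direction among genes that have a symbol and average 2 CPM or more in the higher arm, 10 without overlap, 6 in each direction from the covariate fit and from the organ difference, 4 of each list, and fixed genes such as IDO1; not all are printed. In the organ difference, the level of 2 CPM applied to the highest arm of any organ. Members, lists and rules were chosen with earlier results of these data known. Control and CPB animals carry different numbers, so within ileum no pairing exists; the animal pairs organs only.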

Additional observations from a re-analysis of the deposited data

Results flagged for a closer look

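Among 182 groups of library values examined, 25 held a library whose gap to the nearest other exceeded Dixon's 95% limit, and chance gives about 1 in 20. Of these, 19 were CPB 19. Several of the genes were named for a small p or a large spread, which single libraries such as CPB 19 can set. The chance rate is therefore no baseline for these 25. The library of CPB 19 stood far below the other CPB ilea for FABP6 (10.5 CPM), ANPEP (27.7 CPM), SI (3.26 CPM), SLC10A2 (1.06 CPM), CUBN (0.466 CPM), FABP2 (0.124 CPM) and the B cell factor PAX5 (1.96 CPM). It stood far above them for CA1 (1373 CPM), BPI (1269 CPM), CA2 (817 CPM), GAL3ST2 (408 CPM), AGR2 (224 CPM), NQO1 (171 CPM), CD276 (105 CPM), MECOM (101 CPM), FAM117B (98.7 CPM), UCP3 (85.6 CPM), PPP1R14C (59.3 CPM) and TTC39A (24.8 CPM). Why this library differs was not tested.

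Single high libraries elsewhere were CPB 2 for FKBP5 (303 CPM), CPB 21 for ATP8 (1299 CPM), control 7 for ATF3 (71.8 CPM), control 10 for OSER1 (47.7 CPM), and control 14 for TFF3 (169 CPM) and CA1 (3.24 CPM).

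The CPB effect in ileum differed from the mean of the other 4 organs, by the edgeR test of the difference itself, for 329 genes. Those named were GASK1B (1.57), MECOM (1.91), UCP3 (5.08), PPP1R14C (5.13), GAL3ST2 (5.35) and CA2 (5.87) with a higher effect, and NOP9 (−0.72), OSER1 (−0.88), SLC49A4 (−1.13), IFRD1 (−1.62), S100A12 (−3.24) and S100A8 (−4.18) with a lower one, all as log2 differences. Of the 6 higher ones, GASK1B alone kept its call without the ileum library of CPB 19.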

How the results depend on the processing

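The count of 0 genes passing in ileum held under every setting run except DESeq2 (16 genes) and limma-voom with library weights (6), and leaving out single libraries gave 0 to 0. With muscle and B cell scores, 2 genes passed. That count was 0 with no filter, with either score alone, with 2 principal components and with 2 surrogate variables, 1 with limma-voom, 71 with library weights, 317 with the 15 libraries of both arms alone and 431 with DESeq2. Leaving out single libraries gave 0 to 4 (0 without CPB 6, 11, 19, 21 or 25 or control 4, 7, 10, 13, 14 or 15; 1 without control 1 or 26). The cause was not tested. The organ difference passed in 329 genes, 550 with the animal as replicate block, 199 with no filter, 5 with limma-voom and a weight per organ, and 213 without the ileum library of CPB 19. No other paired analysis was possible because control and CPB animals carry different numbers.

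Component 1 differed by 1.51 over all tested genes and by 6.61 without CPB 19, and component 2 by 31.2 and −21.0. CA2 turned to −0.32 with DESeq2 and without CPB 19 (range over left-out libraries −0.32 to 5.74) and to −0.10 with library weights, ATP8 to −0.060 with DESeq2 and −0.094 without CPB 21 (range −0.094 to 4.77), and OLFM4 to −0.29 without CPB 19. In the organ difference CA2 (−0.019), PPP1R14C (−0.27) and GAL3ST2 (−0.42) turned without the ileum library of CPB 19. List medians moved beyond the spread of their members' arms in 3 cases: goblet cell (0.10) and NRF2 (−0.11) without CPB 19, and enteroendocrine (−0.35) without CPB 2. Other medians shifted within that spread without CPB 19. Epithelial injury and repair went from 0.21 to −0.21, and type I interferon from −0.17 to −0.43. The settings without CPB 19 for the organ difference and the components, and that without libraries high in ALB, were chosen after seeing the data. Whether depth or the spread between animals limits the calls was not tested.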

Other observations

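Liver and fat transcripts appeared in some ilea of both arms. Albumin (ALB) was at 165 CPM in CPB 9, 101.6 CPM in control 26, 80.8 CPM in CPB 6 and 38.0 CPM in control 7, and no higher than 8.93 CPM in the remaining control and CPB ilea. Without these 4 libraries again 0 genes passed with edgeR, and 608 had an unadjusted p under 0.05. The third principal component, 7.87% of the variance, ran to the plasma protein genes FGG, ALB, AHSG and HPX, and its means differed by 20.9 between CPB and control (exact permutation p = 0.0370, two-sided). Over all tested genes the third component differed by 2.94 (exact permutation p = 0.765) and without CPB 19 by 0.21 (exact permutation p = 0.979), on other axes, with correlations of 0.181 and 0.0114 to this one. The third component was looked at after its values were seen. The fat cell hormone ADIPOQ was at 249.5 CPM in control 13, 141 CPM in CPB 21 and 116 CPM in CPB 25, and at most 21.8 CPM in the other control and CPB ilea. Whether liver or fat RNA bears on any gene named above was not tested beyond the fit without the ALB-rich libraries.

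The 4 linrodostat ilea, which had bypass and arrest too, held 90.8 to 127 CPM of JUNB, 35.8 to 66.0 CPM of SUOX, 31.3 to 67.8 CPM of BCL3 and 14.3 to 72.0 CPM of COQ8A, as values with no comparison.

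DESeq2's 16 calls held 8 genes with a symbol: SUOX, NLRP12, MRPS33, JUNB, ZBTB20 and PRXL2B lower, and CLDN8 and FREM1 higher. 4 genes of the organ difference passed in all 7 settings, TNFRSF11A, CACNB4, KCNK6 and ADCY7. Both sets were chosen after their values were seen.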
